A study of Mus musculus with 2 samples.

Results

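Syndecans and glypicans are the main families of heparan sulfate proteoglycans on the cell surface, and they were followed here in mouse cerebral cortex as 10 genes, the 4 syndecans Sdc1 to Sdc4 and the 6 glypicans Gpc1 to Gpc6. The genes were chosen by name, and all 24 array probe sets annotated to 1 of these symbols alone were taken, out of 18193 genes named on the array. Because the values of both arrays were part of that choice, every ratio below is a description and no test was made.

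The RNA came from cerebral cortex of male mice of mixed 129/B6 strain, aged 4 weeks. The wild-type array received RNA pooled in equal parts from 3 mice, and the other array received an equal pool from 3 mice titled as Gnmt knockouts. Gnmt encodes glycine N-methyltransferase, which moves a methyl group from S-adenosylmethionine to glycine. The genotype entry of the second sample reads wild-type although its title says KO, so that sample is called the knockout-titled pool. Which part of the Gnmt gene was removed is not stated in the labels. With 1 array for each pool there was no replicate check, and every ratio compares these 2 pools and not the genotypes.

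A syndecan is a membrane-spanning protein with a short cytoplasmic tail, whereas a glypican is held to the outer membrane by a lipid (GPI) anchor. Both carry long sulfated sugar chains, heparan sulfate, which bind growth factors, morphogens and guidance cues and present them to their receptors. In brain these proteins are known for roles in axon growth, dendritic spines and the formation of synapses by astrocyte-derived signals.

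Values are linear signals, in units set by scaling each array to a common mean. A probe set counted as measured when its signal reached a floor of 64.2 units, the 40th percentile of all signals, on both arrays. Ratios are log2 of knockout-titled over wild-type signal, minus the median over all measured probe sets, so that 0 is no difference relative to the other transcripts. A gene stands by its brightest probe set, and its level is not compared with that of another gene, since probe sets differ in how brightly they bind. The error of a single probe set, from the differences between the brightest pair of probe sets of each of 5375 genes, had an SD of 0.58 on the log2 scale. It leaves out the spread between mice.

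Of the 10 genes, 8 were measured, and Sdc4 stood far from the others. Sdc4 was 6.83-fold higher in the knockout-titled pool, Sdc3 was 1.56-fold higher, Sdc2 was 1.57-fold lower, and the 4 measured glypicans and Sdc1 lay within 1.5-fold by their brightest probe sets. At the 1.5-fold threshold 2 of 8 genes were thus higher and 1 of 8 was lower, where 12.5% and 18.2% of all 12244 measured genes were. The probe set SD equals 1.49-fold, so the Sdc3 and Sdc2 differences were little larger than the error of a single probe set. The median log2 ratio of the 8 genes was 0.18, against -0.06 over all measured genes. Of the 24 probe sets, 17 were measured on both arrays, 1 reached the floor in the knockout-titled pool alone and 6 reached it in neither. Among the 17, 5 were at least 1.5-fold higher and 2 at least 1.5-fold lower, where 16.5% and 18.1% of all probe sets with 1 gene were.

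**Figure D1:**
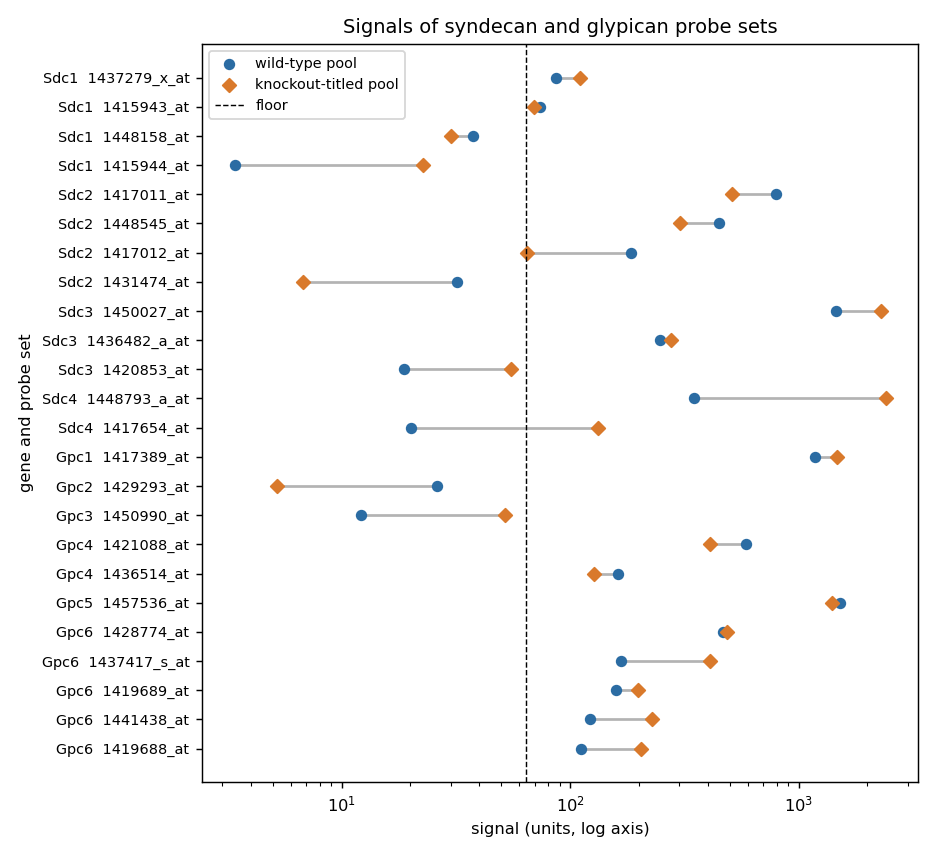
Signal of each of the 24 syndecan and glypican probe sets (rows, grouped by gene, brightest first) on a log axis in units, with a circle for the wild-type pool, a diamond for the knockout-titled pool and a dashed line at the floor of 64.2 units. The widest gap among probe sets measured on both arrays is that of Sdc4, at 349.5 and 2407.8 units, and the probe sets of Gpc2 and Gpc3 lie left of the floor in both pools.

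Upstream sequences are shown for Sdc4 and Sdc3, the members past 1.5-fold higher, and for Gpc4, the measured member with the lowest ratio among those with an entry in the RefSeq promoter table of build GRCm38.p6. That table held 7 of the 10 genes. Each line gives the 250 bases before the annotated start, 5′ to 3′ on the gene's strand, with the GC box GGGCGG (searched on both strands, CCGCCC on the other) in capitals. The windows are chr2:164443189-164443438 on the minus strand for Sdc4, chr4:130792287-130792536 on the plus strand for Sdc3 and chrX:52164924-52165173 on the minus strand for Gpc4.
Sdc4: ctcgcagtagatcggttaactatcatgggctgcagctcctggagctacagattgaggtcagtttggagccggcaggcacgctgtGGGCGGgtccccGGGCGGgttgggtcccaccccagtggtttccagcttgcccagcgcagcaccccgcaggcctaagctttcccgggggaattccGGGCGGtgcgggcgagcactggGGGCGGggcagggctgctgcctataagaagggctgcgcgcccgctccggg
Sdc3: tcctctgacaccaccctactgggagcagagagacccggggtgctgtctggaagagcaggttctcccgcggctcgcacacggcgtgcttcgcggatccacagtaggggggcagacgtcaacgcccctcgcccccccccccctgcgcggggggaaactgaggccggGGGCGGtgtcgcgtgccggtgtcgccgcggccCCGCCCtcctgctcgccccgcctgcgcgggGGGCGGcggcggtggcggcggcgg
Gpc4: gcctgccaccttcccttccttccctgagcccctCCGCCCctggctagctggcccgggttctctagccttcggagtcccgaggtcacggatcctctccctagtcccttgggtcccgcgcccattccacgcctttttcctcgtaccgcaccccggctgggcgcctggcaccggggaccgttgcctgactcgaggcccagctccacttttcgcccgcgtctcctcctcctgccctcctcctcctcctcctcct
The GC box is the sequence bound by Sp1, a factor common at promoters without a TATA box. It occurred 4 times upstream of Sdc4, 3 times upstream of Sdc3 and 1 time upstream of Gpc4, and 32.7% of 32851 promoter windows of that length held at least 1. The other members with an entry were not ordered by ratio in this way: Sdc1, Gpc2 and Gpc3 had 3 each and Gpc5 had 1. The share of all windows with 3 or more was not counted. The TATA box, spelled TATAAA, was in none of the 3 windows and in 12.4% of all, and CCAAT was in none of the 3 and in 33.8% of all. The AP-1 letters TGAGTCA were in none of the 3 and in 4.46% of all. The GC content was 68.0% for Sdc4, 76.4% for Sdc3 and 68.4% for Gpc4, where the median window had 52.4%.

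Sdc4 encodes syndecan-4, which clusters with integrins at focal adhesions and binds protein kinase C alpha through its cytoplasmic tail. Its brighter probe set, 1448793_a_at, gave 349.5 units with wild-type RNA and 2407.8 units with knockout-titled RNA, a log2 ratio of 2.77. A difference of 4-fold or more in this direction was seen in 0.286% of the 12244 measured genes, and Sdc4 had rank 5 from the highest ratio. The dimmer probe set, 1417654_at, gave 20.1 and 132.2 units. Its wild-type signal lay below the floor, so it was at least 2.04-fold higher in the knockout-titled pool. Both Sdc4 probe sets therefore had the higher signal in the same pool, and the large ratio rests on the brighter of them. The suffix of that probe set marks probes shared by several transcripts of a gene. When suffixed probe sets were left out Sdc4 kept no ratio, because the dimmer probe set was below the floor in the wild-type pool.

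Sdc3 encodes syndecan-3 (N-syndecan), the neuronal syndecan that acts as a receptor for pleiotrophin. Its brightest probe set, 1450027_at, gave 1456.9 units with wild-type RNA and 2293.9 units with knockout-titled RNA, a log2 ratio of 0.64. A second probe set, 1436482_a_at, gave 248.1 and 276.2 units, a log2 ratio of 0.14. The third, 1420853_at, had 18.8 and 55.1 units, below the floor in both pools. Both measured probe sets had the higher signal in the knockout-titled pool. Only the brightest passed 1.5-fold, and the gap between its ratio and that of the second, 0.50, was smaller than the probe set SD of 0.58. The median over the measured Sdc3 probe sets was 0.39, inside 1.5-fold.

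Sdc2 encodes syndecan-2, which is found at dendritic spines and promotes their maturation in culture. It was lower in the knockout-titled pool by all 3 of its measured probe sets. The brightest, 1417011_at, gave 793.8 units with wild-type RNA and 508.2 units with knockout-titled RNA, a log2 ratio of -0.66. Probe set 1448545_at gave 446.4 and 302.4 units, a log2 ratio of -0.57. These values differed by far less than the probe set SD, and they lie just past and just inside 1.5-fold. Probe set 1417012_at gave 184.6 and 65.0 units, a log2 ratio of -1.52, with its second value barely above the floor. The dimmest, 1431474_at, gave 31.9 and 6.8 units, below the floor in both pools.

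Sdc1 encodes syndecan-1, the syndecan of epithelia and plasma cells, and its signals were close to or below the floor. Probe set 1437279_x_at gave 87.1 units with wild-type RNA and 110.2 units with knockout-titled RNA, a log2 ratio of 0.33. Probe set 1415943_at gave 73.9 and 69.7 units, a log2 ratio of -0.10. The Sdc1 probe sets thus had opposite signs within 1.5-fold, and the brighter carries a suffix for probes that also match other transcripts. Signals of 37.4 and 30.2 units (1448158_at) and of 3.4 and 22.7 units (1415944_at) lay below the floor in both pools.

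Among the glypicans, Gpc4 and Gpc6 encode the glypicans that astrocytes release and that raise AMPA receptor levels at young synapses. They had opposite signs. Gpc4 gave 585.3 units with wild-type RNA and 410.5 units with knockout-titled RNA by 1421088_at, a log2 ratio of -0.52. Its other probe set, 1436514_at, gave 162.4 and 126.9 units, a log2 ratio of -0.37. Both Gpc4 probe sets were lower in the knockout-titled pool and neither reached 1.5-fold. Of all measured genes, 20.9% had a lower ratio than Gpc4.

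For Gpc6 the call at 1.5-fold depended on the probe set. Its brightest, 1428774_at, gave 464.6 and 486.2 units in the wild-type and knockout-titled pools, a log2 ratio of 0.05. The suffixed probe set 1437417_s_at, which can bind transcripts of several genes, gave 167.0 and 407.3 units, a log2 ratio of 1.27. Probe sets 1441438_at and 1419688_at gave 122.2 and 228.4 units and 111.1 and 204.0 units, with log2 ratios of 0.89 and 0.86. The remaining probe set, 1419689_at, gave 159.3 and 198.7 units, a log2 ratio of 0.31. All 5 Gpc6 probe sets had the higher signal in the knockout-titled pool, and 3 passed 1.5-fold, although the brightest did not differ by more than its error. The range over the 5 was 1.22, and their median of 0.86 was past 1.5-fold. A range over 5 probe sets can exceed the SD of a single one, 0.58, by error alone.

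Gpc1 and Gpc5 each had a single probe set. Gpc1, a glypican of neurons and glia that binds fibroblast growth factors and Slit proteins, gave 1174.5 units with wild-type RNA and 1473.6 units with knockout-titled RNA, a log2 ratio of 0.32. Gpc5, a glypican known to bind hedgehog ligands, gave 1514.8 and 1400.7 units, a log2 ratio of -0.12. Both ratios were smaller than the probe set SD.

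Gpc2 and Gpc3 had no ratio. Gpc2 (cerebroglycan), a glypican of young neurons that are still growing axons, gave 26.1 and 5.2 units in the wild-type and knockout-titled pools. Gpc3, a glypican that restrains growth in the embryo, gave 12.2 and 52.0 units. Both genes were below the floor in both pools, so neither their level nor a difference could be read.

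**Figure D2:**
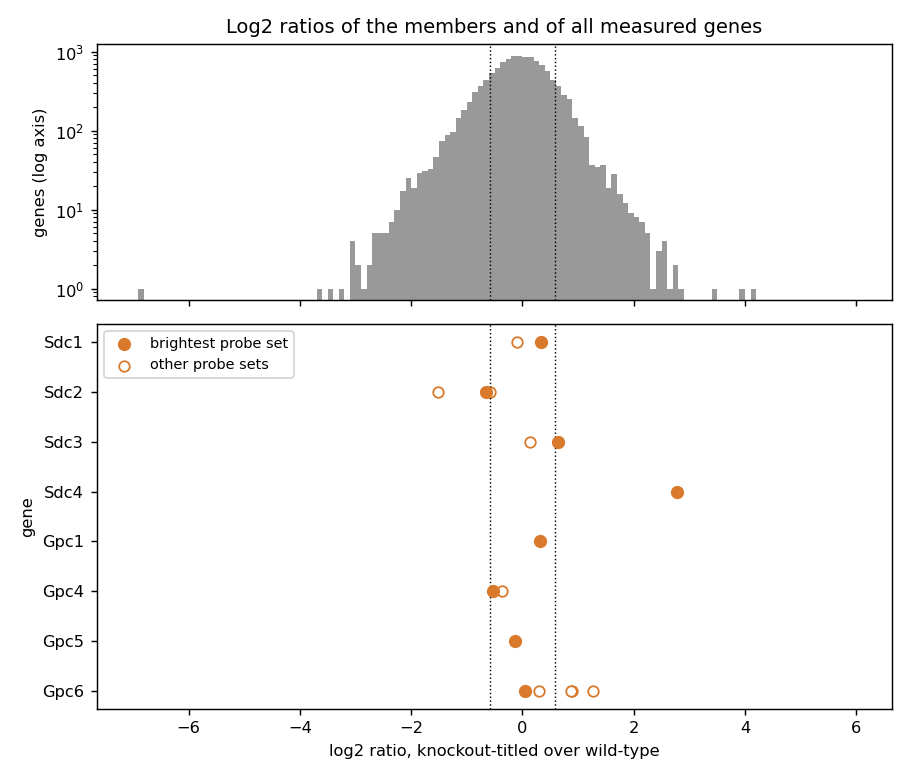
Log2 ratio of knockout-titled over wild-type signal for all 12244 measured genes (top, number of genes per bin on a log axis) and for each measured syndecan and glypican probe set (bottom, filled for the brightest of a gene), with dotted lines at 1.5-fold. Sdc4 lies at 2.77 in the far right tail, the 3 Sdc2 probe sets lie between -1.52 and -0.57, and those of Gpc6 run from 0.05 to 1.27.

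Other transcripts bear on how the pools can be compared. Gnmt itself, by its only probe set, had 10.0 units with wild-type RNA and 21.5 units with knockout-titled RNA, below the floor in both, so it did not check the labels. Pituitary genes were far higher in the wild-type pool: the summed signal of 8 listed genes on the array was 31376 units there against 741.3 units in the knockout-titled pool, with Gh at a log2 ratio of -6.87. Xist, the RNA of the inactive X chromosome, gave 49.6 and 2560.3 units, at least 39.6-fold higher in the knockout-titled pool, although both pools are labelled male. Gpc3 and Gpc4 are X-linked, with Gpc3 below the floor and Gpc4 at -0.52. The part of these differences in the syndecan and glypican ratios was not tested.

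The cell types that carry these proteoglycans were compared by marker lists, by brightest probe sets. The background for the marker counts at 1.5-fold, taken over 12244 genes, was 12.5% for higher and 18.2% for lower in the knockout-titled pool. In bulk tissue, fewer cells of a type and less RNA per cell cannot be told apart. All 8 neuron markers lay within 1.5-fold by their brightest probe sets, with summed signals of 95673 units with wild-type RNA and 89213 units with knockout-titled RNA. Other probe sets went past it: log2 ratios ran from -0.42 to 2.44 for Syt1, from 0.06 to 2.01 for Gad2 and from -0.70 to -0.53 for Stmn2. Of 10 astrocyte markers, 4 were at least 1.5-fold lower and 0 higher in the knockout-titled pool, with sums of 74852 and 70987 units. Of the lower ones, probe sets ran from -1.23 to -1.09 for Gfap and from -1.23 to -0.92 for S100b. Those of Aqp4 ran from -1.33 to 1.60 and those of Slc1a3 from -1.13 to 0.34. Among the others, Slc1a2 ran from -0.33 to 3.88 and Gja1 from -0.55 to 1.66. All 6 measured endothelial markers lay within 1.5-fold, with sums of 4273 and 4671 units over 7 genes, and Pecam1 was below the floor in both pools. Of 5 oligodendrocyte precursor markers 1 was higher and 1 lower, with sums of 5635 and 5212 units, and of 5 measured oligodendrocyte markers 1 was lower and 0 were higher (62663 and 54935 units). Of 7 measured pericyte and fibroblast markers 1 was higher and 0 were lower (sums of 6733 and 6575 units over 8 genes), Kcnj8 being below the floor in the knockout-titled pool, and all 4 measured choroid plexus markers lay within 1.5-fold (38647 and 35714 units over 5 genes), Foxj1 being below it in both. Of 8 microglia markers 5 were lower and 1 was higher, with a median log2 ratio of -1.07 and sums of 11897 and 10337 units. The lower ones were Fcrls (4.10-fold), C1qa (3.50-fold), P2ry12 (2.46-fold), Tmem119 (2.32-fold) and C1qb (1.91-fold, its probe sets from -1.61 to -0.56). The higher one, Cx3cr1, was 3.91-fold higher by its only measured probe set, at 87.2 and 343.6 units. Csf1r gave the largest part of both sums, 6389.8 and 7830.1 units. Probe sets also differed within markers of other lists, from -0.76 to 0.92 for Rgs5, from -0.70 to 0.28 for Csf1r and from -0.83 to -0.32 for Cnp. The sums are carried by the brightest probe sets of each list. The part of cell type makeup in the syndecan and glypican ratios was not tested.

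The enzymes that build heparan sulfate were mixed in direction. For this list and those that follow, the shares over all measured genes were 12.5% higher and 18.2% lower. By second brightest probe sets these shares were 19.4% and 19.1%. Of 9 measured genes that start or lengthen the chain, 2 were at least 1.5-fold higher and 2 at least 1.5-fold lower in the knockout-titled pool, and their median log2 ratio of -0.06 was that of all measured genes. It turned to 0.16 with quantile normalization and was -0.42 by second brightest probe sets, where 0 genes were past 1.5-fold in either direction. The highest were B4galt7, a galactosyltransferase of the linker, at 0.72, Extl1, an exostosin-like gene, at 0.71 and Fam20b, the linker xylose kinase, at 0.53. The second measured probe sets of B4galt7 and Fam20b gave -0.42 and -0.51. B3gat3, which adds the last linker sugar, was lowest at -1.15, followed by Extl2 at -0.75 (its other probe set -0.43) and B3galt6 at -0.21 (its lowest probe set -1.34). Ext1 and Ext2, which together form the polymerase, had log2 ratios of -0.21 and -0.06 and lay within 1.5-fold.

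Genes that sulfate, epimerise or trim the chain had 2 of 12 measured members higher and 3 lower, with a median of -0.17 that was -0.22 with quantile normalization and 0.10 by medians of probe sets. Sulf1, an extracellular enzyme that removes 6-O-sulfate, was lowest, with 474.3 units with wild-type RNA and 184.7 units with knockout-titled RNA, 2.59-fold lower, while its other probe set gave -0.27. Hs3st4, a 3-O-sulfotransferase, was 2.06-fold lower and Hs6st2, a 6-O-sulfotransferase, 1.91-fold lower. Ndst2, an N-deacetylase and sulfotransferase, was 1.85-fold higher, Glce, the epimerase, 1.59-fold higher, and Hs3st2 had a ratio of 0.36, with its probe sets from -0.34. Ndst3, of the same family as Ndst2, reached the floor in the knockout-titled pool alone and was at least 1.60-fold higher. The counts were 4 higher and 4 lower with the floor at the 25th percentile, where 13.0% and 20.6% of all genes were. Without a floor they were 3 and 6, where 17.4% and 27.2% of all genes were. Within the 6-O-sulfation genes, Hs6st1 had 0.17 and Sulf2 had -0.48, with Sulf2 probe sets between -0.91 and 1.40.

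Of 7 measured genes that supply precursors, 2 were lower and 1 was higher. The median log2 ratio was 0.05, and it was -0.05 without a floor, -0.02 with the floor at the 60th percentile, -0.21 by medians of probe sets and -0.72 by second brightest probe sets. Slc35d1, a transporter of nucleotide sugars, was 2.13-fold higher, and Ugdh and Slc35b3 had 0.19 and 0.06. Slc35b2, which carries the sulfate donor into the Golgi, was 2.12-fold lower by its brightest probe set and had -0.24 by the other. Ugp2, which makes UDP-glucose, was 1.88-fold lower, and Papss1, which makes the sulfate donor, had -0.21. The 5 probe sets of Ugp2 ran from -1.20 to 0.23.

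Among 11 genes of enzymes that can shed or release these proteoglycans or cut their core, 3 were higher and 0 lower. Their median was 0.22, which was -0.36 by second brightest probe sets. The furin-like convertase gene Pcsk6 was 1.93-fold higher. Gpld1, which cleaves lipid anchors of the kind that holds glypicans, gave 1029.3 units with wild-type RNA and 1824.9 units with knockout-titled RNA, 1.76-fold higher. Pcsk5 was 1.53-fold higher, although its other probe set gave -0.37. The membrane metalloprotease gene Mmp14 was lowest at -0.47, followed by the sheddase Adam17 at -0.31 and Mmp9 at -0.03. Notum, which releases glypicans or inactivates Wnt ligands, had 0.33.

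Of 14 genes for proteins that bind or work with the syndecan tail, 5 were lower and 1 was higher, where 18.2% and 12.5% of all measured genes were. The median of the list was -0.26, which was -0.13 with quantile normalization and 0.15 by second brightest probe sets. Pdcd6ip (Alix), which joins syntenin in exosome formation, was 3.78-fold higher at 580.9 and 2215.6 units, but another of its 4 probe sets gave -0.34. Fyn and Src, kinases that act with the tail, had 0.28 and 0.06. Ezr (ezrin) was lowest at -1.11 but had 0.18 by another probe set, and Actn4 and Gipc1 were 1.68-fold and 1.65-fold lower. Sdcbp (syntenin) was 1.58-fold lower and Cask 1.57-fold lower, with other probe sets of Sdcbp at -0.18 and of Cask reaching 0.32. Sdcbp2 (syntenin-2) had -0.28 and Tiam1 -0.04, both within 1.5-fold. Prkca, the kinase that syndecan-4 binds, had -0.08 by its brightest probe set and -1.20 by the other. The count of lower genes in this list was 3 with quantile normalization, with loess and by medians of probe sets. Of all genes, 18.2%, 17.4% and 16.9% were lower under these settings.

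Among 24 measured ligands and receptors that bind heparan sulfate, 3 were higher and 3 lower, and the median was 0.07. Hbegf, a heparin-binding growth factor, was 2.01-fold higher, though its other probe set gave -0.39. Ptprf, a receptor phosphatase of the LAR family, was 1.77-fold higher (all 3 probe sets from 0.59 to 1.04), and Slit1, a guidance cue, 1.72-fold higher (its other probe set 0.31). The lowest were Nrp1, a semaphorin and VEGF receptor, at -1.39 (its probe sets reaching 2.41), Fgf1 at -0.89 (its other probe set -0.13) and Lrrtm3 at -0.74 (its probe sets reaching 2.13). Among partners known for these members, the brightest probe sets of the syndecan-3 ligand gene Ptn, the glypican receptor gene Ptprs and the glypican-binding synaptic gene Lrrtm4 gave -0.49, 0.20 and -0.56. Their probe sets ran from -0.49 to 0.57 for Ptn, from 0.20 to 1.53 for Ptprs and from -1.34 to -0.56 for Lrrtm4, so Ptprs and Lrrtm4 each had a probe set past 1.5-fold. Listed genes that reached the floor on 1 array alone are not in these counts. Robo2, a Slit receptor gene, gave 31.5 and 277.3 units and was at least 4.28-fold higher in the knockout-titled pool, and Hgf, a growth factor gene, at least 1.67-fold higher. Gpr158, encoding a receptor for glypican-4, gave 144.3 and 62.5 units and was at least 2.27-fold lower. The counts were 5 higher and 6 lower with the floor at the 25th percentile, where 13.0% and 20.6% of all genes were. Without a floor they were 6 and 8, where 17.4% and 27.2% of all genes were.

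Among 20 measured genes of other proteoglycans, 1 was lower and 4 were higher. Their median was -0.01, which was 0.14 with quantile normalization. Spock1 (testican-1) was 2.77-fold higher, with its other probe set at 0.20. Tgfbr3 (betaglycan), a co-receptor that can carry heparan sulfate, was 2.55-fold higher, and Agrn (agrin), a heparan sulfate proteoglycan of basement membranes and synapses, was 1.85-fold higher at 1981.4 and 3697.0 units. Ptprz1, a chondroitin sulfate receptor phosphatase, was 1.72-fold lower (all 3 probe sets from -0.80 to -0.74). Srgn and Ncan followed at -0.49 and -0.18, and a probe set of Ncan reached 0.74. Hspg2 (perlecan) had 0.04.

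**Figure D3:**
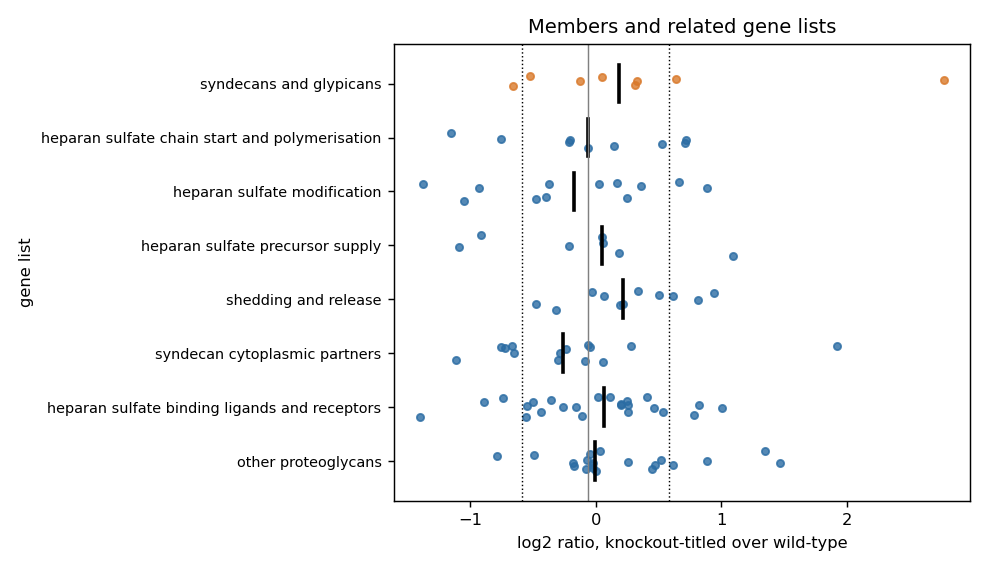
Log2 ratio of knockout-titled over wild-type signal for the 8 measured syndecans and glypicans and for the measured genes of 7 related lists (1 point per gene by brightest probe set, spread vertically for legibility), with a black bar at each list's median, a grey line at the median of all genes (-0.06) and dotted lines at 1.5-fold. Sdc4 at 2.77 is the farthest point in the plot, and the medians of the 7 related lists lie between -0.26 and 0.22.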

How the data were processed

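The authors deposited 1 linear intensity for each probe set on each array, and the submitters' processing notes name GCOS, the Affymetrix operating software. The sources used here give neither its version nor its signal algorithm, and no detection calls were used. The mean of each array after trimming 2% at either end was 500.0, so the authors had scaled the arrays. Median signals were 92.0 and 124.9 units in the wild-type and knockout-titled arrays.

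Of 45101 probe sets, 64 were controls. Of the others, 34945 had 1 gene symbol in the platform annotation, 932 had several and 9160 had none; 34741 took their current symbol from RefSeq (GRCm38.p6). Ratios were centred by 0.01, the median over 23928 measured probe sets. There is 1 array per group, so precision is limited by the number of arrays and no p-value is given.

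Members and lists were chosen with earlier results of these data known. The genes named were all members and up to 3 at either end of each pathway list; other list genes named for their role or direction were chosen after their values were seen. Calculations were tested on simulated data. Alternatives covered the floor, scaling, probe set choice and suffixed probe sets. Python 3.11.15, numpy 2.4.6, pandas 2.3.3, statsmodels 0.14.6 and matplotlib 3.10.9 were used.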

Additional observations from a re-analysis of the deposited data

How the results depend on the processing

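Sdc4 kept a log2 ratio between 2.67 and 2.83 under the 7 alternatives that gave it one, and Sdc2 stayed between -0.76 and -0.57 under 9. All 7 Sdc4 values came from the same probe set, 1448793_a_at, so their narrow range is no check by another probe set. Without suffixed probe sets 1 member was higher (Sdc3), where 11.8% of all genes were, and the median of the members was -0.14, since Sdc4 had no ratio. With the second brightest probe set of each gene, an alternative added after seeing the data, 5 members had a value, 1 was higher (Gpc6), 0 were lower and the median was -0.10. Over all genes 19.4% were then higher and 19.1% lower. Without a floor 3 members were lower (Sdc2, Gpc2 and Gpc4) and Gpc3 took the place of Sdc3 among the higher. The shares over all genes rose as well, to 27.2% lower and 17.4% higher. By medians of probe sets 2 were higher, Sdc4 and Gpc6 in place of Sdc3, and Gpc6 had 0.86. The signs of Sdc1 and Gpc6, both within 1.5-fold, also turned: Sdc1 to -0.03 with quantile normalization and -0.14 without suffixed probe sets, Gpc6 to -0.05 without a floor. Of 283 values recomputed for members and lists, 243 stayed within tolerance and 40 moved, 15 of them by second brightest probe sets. The tolerance was the probe set SD for a gene, that SD divided by the square root of the number of measured genes for a median, and 1.5 times for a count. No paired analysis was possible because each group has 1 array. Signals near the floor limit Sdc1, Gpc2 and Gpc3.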

Other observations

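In the RefSeq gene order, Gpc5 is followed by Gpc6 and Gpc4 by Gpc3 among coding genes. The log2 ratio of Laptm5, a lysosomal protein gene of immune cells that lies next to Sdc3, was 0.69 (868.9 units with wild-type RNA and 1410.6 units with knockout-titled RNA), beside 0.64 for Sdc3. Laptm4a, next to Sdc1, had 0.12. Cpq, the coding gene after Sdc2, had -0.73 with 388.6 and 235.5 units, beside -0.66 for Sdc2, while Sema5a on its other side had 0.22. Sys1, next to Sdc4, had -0.24 by the brightest of its 5 probe sets, with 1232.5 and 1055.3 units. Slitrk5 and Dct, which flank the Gpc5 and Gpc6 pair, had 0.12 and 0.22. A probe set annotated to both Gal3st4 and Gpc2 gave 318.4 and 349.4 units and was not used, because it names several genes.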
